A study of Mus musculus with 18 samples.

Results

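The genes described here build cholesterol and fatty acids, together with the genes that regulate this synthesis or move its products. They were chosen by name, as 37 gene symbols, and each was read from every microarray probe set that the platform annotation assigned to that single symbol. In all, 36 of the 37 had such a probe set, out of 18194 genes with one on the array, and Acat2 was not analysed here. The 36 genes had 88 probe sets of the 45101 on the array, and each gene is described by its brightest probe set, the one with the highest mean signal over all 18 arrays. All 36 passed the filter on dim probe sets (a mean of at least 100 in some group), and the 1 group mean of a member below that value was that of Elovl7 after 24 h of BMP2.

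RNA was hybridised to Affymetrix Mouse Genome 430 2.0 arrays from cultures that began as neurospheres, free-floating clusters of neural precursors, of the ganglionic eminences, lateral and medial, of the mouse forebrain (strain C57BL/6, E15.5 embryos). The spheres were dissociated and plated as a monolayer, and medium with 1% serum allowed differentiation in every group, controls included. The growth factors bFGF and EGF were also withdrawn. The study's results place the start of treatment before bFGF withdrawal, but the sources differ on this order. Cultures received trichostatin A (TSA), an inhibitor of class I and II histone deacetylases, at 50 nM for 24 h (4 arrays) or 6 h (2 arrays). Others received bone morphogenetic protein 2 (BMP2), a growth factor, at 10 ng/ml for 24 h (2 arrays) or 6 h (2 arrays). Control cultures received neither, at 24 h (6 arrays) or 6 h (2 arrays). These are mixed cultures, so that fewer cells of a type and less RNA per cell cannot be told apart. The labels do not say whether arrays of a group came from separate cultures, and p-values therefore measure only the spread between these arrays, which may be technical.

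Cholesterol is built from acetyl-CoA. The mevalonate pathway turns it into isoprenoid units and farnesyl diphosphate, which are joined to squalene, closed to lanosterol and trimmed in many steps to cholesterol. Long-chain fatty acids start from the same acetyl-CoA, which is carboxylated, assembled to palmitate, then elongated and desaturated. Both branches are governed by the sterol regulatory element-binding proteins (SREBPs). When sterols are scarce the escort protein SCAP carries the SREBPs from the endoplasmic reticulum to the Golgi for cleavage, and when sterols are plentiful the INSIG proteins hold the complex back. The brain makes nearly all of its own cholesterol, and glial cells, above all those that form myelin, are its main producers.

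Signals are given on a linear scale after quantile normalization of the deposited values, and are called normalized signals. Changes are log2 fold changes of (normalized signal + 32), each with its standard error (SE), from a limma fit to all 19498 probe sets above the filter. A gene was said to rise or fall where its p-value, adjusted over all of these, was below 0.05. Arrays of a group correlated at 0.908 to 0.988 over these 19498 probe sets, on the log2 scale. Within the 24 h controls, replicates 1 to 4 correlated with each other at 0.953 to 0.985 and replicates 5 and 6 at 0.975, but across these subsets r was only 0.908 to 0.942. Replicates 5 and 6 of the controls and both BMP2 24 h arrays (array set B) also shared a signal of 703 to 2086 for a probe set of Xist, against 18.4 to 75.5 in the other 14 arrays (array set A). A brighter Xist probe set had 2197 to 4467 in array set B and 325 to 1875 in array set A. A dimmer one overlapped, at 23.4 to 97.5 and 66.8 to 375. The labels name no batch. All TSA 24 h arrays lay in array set A and both BMP2 24 h arrays in array set B, and the controls spanned both. Results at 24 h were therefore also fitted with array set as a term, which sets each treatment against the controls of its own set.

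A genomic context for these genes is given by the promoter sequences of RefSeq on GRCm38.p6, from 250 bases before to 50 after the transcription start. An entry was held for 29 of the 36 genes (not for Fdps, Fdft1, Sqle, Scd1, Scd2, Fads1 and Stard4). The classical 10-letter sterol regulatory element was searched on both strands. Without a mismatch it was found in none of the 29, and in 0.0999% of 27025 genes. With at most 1 mismatch it was found in Hmgcs1, Nsdhl and Srebf2, and in 2.22% of all genes. That relaxed search was chosen after the exact one had been seen. The windows lie on the plus strand at chr13:119690193-119690242 (Hmgcs1), chrX:72918295-72918344 (Nsdhl) and chr15:82147086-82147135 (Srebf2), and the element lies at -138 to -129, -206 to -197 and -163 to -154 from the start. They are shown because they hold the closest matches to the element among these genes, which is in capitals.
Hmgcs1: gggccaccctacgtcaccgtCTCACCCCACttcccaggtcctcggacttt
Nsdhl: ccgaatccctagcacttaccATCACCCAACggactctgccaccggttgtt
Srebf2: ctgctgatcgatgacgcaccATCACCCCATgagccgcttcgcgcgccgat
The shorter core TCACCCCA, which overlaps the element, occurred in Hmgcs1, Srebf2 and Apoe (3 of 29, and 1.77% of all genes).

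The CCAAT box, the site of the factor NF-Y that often accompanies SREBP sites, occurred on either strand in 22 of the 29 promoters and in 41.1% of all genes. The E-box CACGTG, which SREBP-1 can also bind, occurred in 7 (Hsd17b7, Sc5d, Dhcr7, Insig1, Scap, Elovl5 and Abca1) and in 8.09% of all genes. The 100 bases before the start are shown for Idi1 (chr13:8885506-8885605, plus strand), Lss (chr10:76531505-76531604, plus strand), Cyp51 (chr5:4104698-4104797, minus strand) and Fasn (chr11:120824548-120824647, minus strand), 3 of the most strongly changed sterol genes and the central enzyme of fatty acid synthesis. Capitals mark CCAAT or its reverse complement ATTGG, which share bases in one place in Fasn.
Idi1: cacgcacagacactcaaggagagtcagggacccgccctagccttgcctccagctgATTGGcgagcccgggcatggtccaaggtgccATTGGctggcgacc
Lss: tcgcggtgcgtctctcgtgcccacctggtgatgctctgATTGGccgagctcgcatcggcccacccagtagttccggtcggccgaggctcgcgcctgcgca
Cyp51: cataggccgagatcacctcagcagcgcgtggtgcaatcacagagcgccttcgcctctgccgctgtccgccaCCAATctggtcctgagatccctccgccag
Fasn: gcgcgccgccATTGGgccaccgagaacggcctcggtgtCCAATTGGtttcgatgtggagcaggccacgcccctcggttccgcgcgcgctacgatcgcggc
These letters describe the sequences, and binding was not measured.

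After 24 h of TSA all 6 mevalonate genes, 8 of 11 genes from squalene to cholesterol and 8 of 11 fatty acid genes fell. Of the 36 genes, 23 fell and 4 rose, and 9 did not pass the test. Among all 10576 genes tested, 20.1% fell and 18.6% rose (38.7% in either direction). The median log2 fold change was -0.70 over the 36 genes and -0.02 over all genes, and it was negative for 29 of the 36. In 16 genes every TSA 24 h array lay below every control and in 3 every one lay above, against 11.7% and 11.8% of all genes. With array set as a term 22 fell and 4 rose (18.2% and 19% of all genes). The labels state no pairs, but same-numbered TSA and control arrays at 24 h deviated together, so replicate number was also fitted as a block. With this replicate block over all arrays 25 fell and 5 rose (24.8% of all genes in each direction). The study's criteria were also applied (more than 2-fold and a difference over 100), with unadjusted limma p below 0.1 in place of the study's confidence limit. By these, 12 fell and none rose, against 2.18% and 2.94% of all genes. Here and below, shares by the study's criteria are over all 18194 genes with a probe set, dim ones included, whereas all 36 passed the filter.

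**Figure D1:**
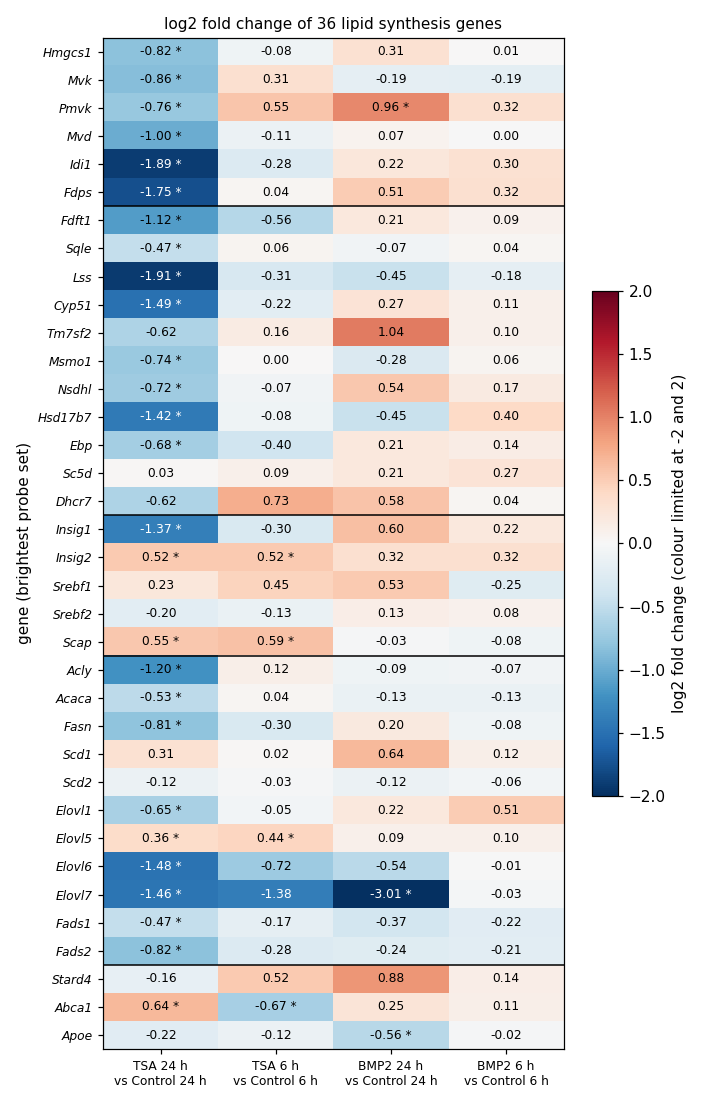
Log2 fold changes of the 36 genes (rows, grouped by role from the mevalonate pathway at the top to transport at the bottom) in the 4 comparisons of a treatment with its control of the same time (columns), with blue for lower and red for higher in the treated cultures and an asterisk where adjusted p was below 0.05. The TSA 24 h column holds 23 blue and 4 red cells with an asterisk, against 1 and 3 in the TSA 6 h column, 2 and 1 for BMP2 24 h and none for BMP2 6 h.

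All 6 genes of the mevalonate pathway fell after 24 h of TSA, with log2 fold changes of -0.76 to -1.89. Hmgcs1, the cytosolic HMG-CoA synthase, had normalized signals of 3217, 3235, 3308 and 3129 in TSA 24 h cultures, and in the 24 h controls its lowest, median and highest signals were 4366, 5763 and 6937. Every TSA array lay below every control, and the log2 fold change was -0.82 (SE 0.09, adjusted p = 5.59e-06). Idi1, the isopentenyl diphosphate isomerase, had 367, 327, 308 and 415 in TSA 24 h cultures and 877, 1522 and 1829 as lowest, median and highest of the controls. The groups were widely separated, at 354 ± 47.5 in TSA 24 h cultures (SD, n = 4) and 1432 ± 332 in controls (SD, n = 6), and the fall was 3.72-fold (log2 -1.89, SE 0.17, adjusted p = 8.62e-07). Fdps, which makes farnesyl diphosphate, had 301, 272, 548 and 608 in TSA 24 h cultures and 941, 1397 and 2954 as lowest, median and highest of the controls. Again no TSA array reached the controls (log2 -1.75, SE 0.30, adjusted p = 3.22e-04), although the controls themselves spread about 3-fold.

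The 3 enzymes between HMG-CoA synthase and the isomerase were dimmer. Mvk and Pmvk, the kinases of mevalonate and phosphomevalonate, fell by 0.86 (adjusted p = 0.0134) and 0.76 (adjusted p = 0.00624) on the log2 scale. Their groups overlapped, at 94.7 to 186 in TSA 24 h cultures and 150.2 to 516 in controls for Mvk, and at 152 to 247 and 211 to 552 for Pmvk. Mvd, the diphosphomevalonate decarboxylase, had 126 to 186 in TSA 24 h cultures and 214 to 875 in controls, without overlap, a fall of 1.99-fold (SE 0.28 on the log2 scale, adjusted p = 0.0108). With array set as a term all 3 still passed, with smaller log2 changes of -0.59 for Mvk, -0.53 for Pmvk and -0.65 for Mvd.

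**Figure D2:**
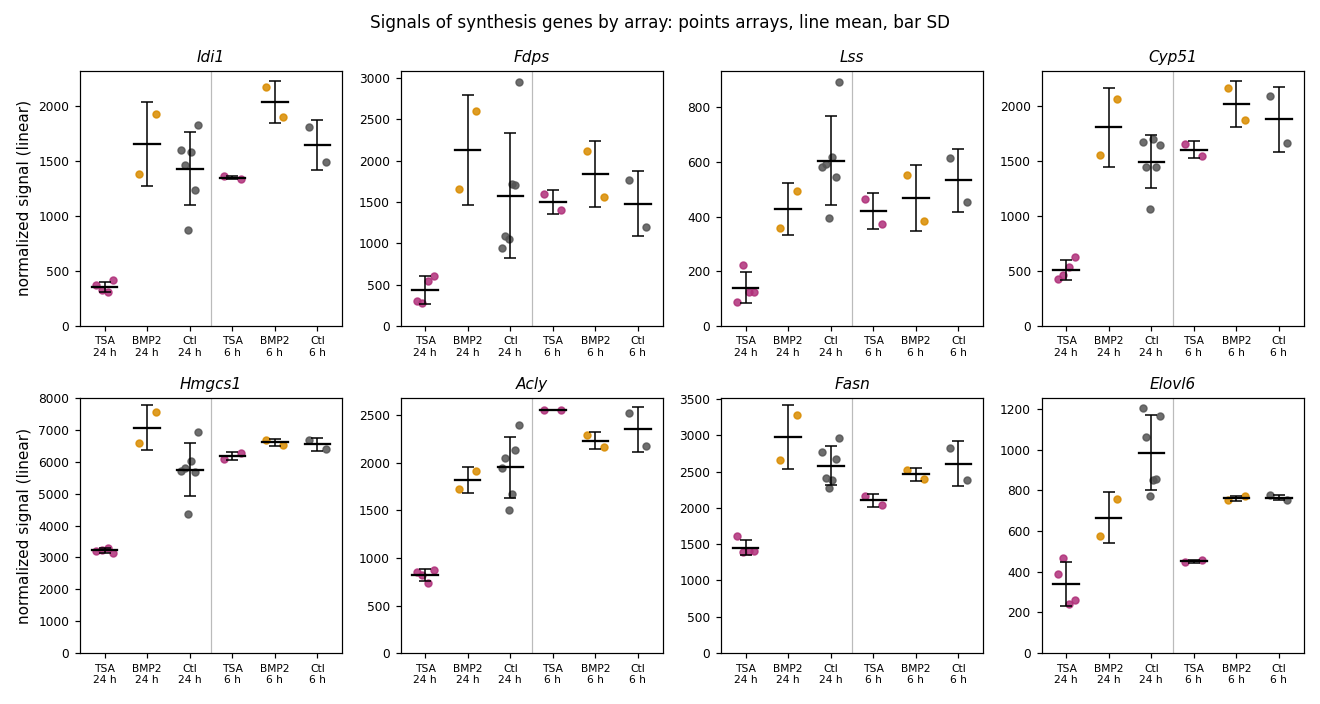
Normalized signal on a linear axis (points, 1 per array, with the mean as a line and the SD as a bar) of 8 synthesis genes in the 6 groups, Ctl being the control. In each of the 8 genes the 4 TSA 24 h arrays lie below all 6 of the 24 h controls, while the BMP2 24 h arrays do so only in Elovl6.

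Of the 11 genes from squalene to cholesterol, 8 fell after 24 h of TSA and 3 did not pass the test. Fdft1, the squalene synthase, had 637, 671, 989 and 949 in TSA 24 h cultures and 1221, 1720.2 and 2757 as lowest, median and highest of the controls (log2 -1.12, SE 0.20, adjusted p = 4.48e-04). Lss, which closes the ring system to lanosterol, had 87.1, 223, 125 and 125 in TSA 24 h cultures and 394, 587 and 894 in the controls. It had the largest fall of the 36 genes, 3.75-fold (log2 -1.91, SE 0.22, adjusted p = 9.11e-06), with replicate 2 the least affected. Cyp51, the lanosterol demethylase, had 422, 461, 536 and 628 in TSA 24 h cultures and 1059, 1547 and 1703 in the controls. The arrays did not overlap and the fall was 2.80-fold (log2 -1.49, SE 0.14, adjusted p = 1.83e-06).

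Hsd17b7, a sterol ketone reductase, had 127, 145, 137 and 119 in TSA 24 h cultures and 249.6, 394 and 738 as lowest, median and highest of the controls (log2 -1.42, SE 0.28, adjusted p = 0.00107). Its TSA arrays were close together and below all controls. Msmo1, a sterol methyl oxidase, and Ebp, a sterol isomerase, also fell without overlap, by 0.74 (adjusted p = 0.00182) and 0.68 (adjusted p = 5.86e-04) on the log2 scale. The fall was less secure for Sqle and Nsdhl. Sqle, the squalene epoxidase, had 1681, 957, 1449.8 and 1483 in TSA 24 h cultures and 1380.2, 1992 and 2464 in the controls (log2 -0.47, SE 0.16, adjusted p = 0.0293), and Nsdhl, a sterol dehydrogenase, had a log2 fold change of -0.72 (adjusted p = 0.0224). The groups overlapped in both, and with array set as a term neither passed (adjusted p = 0.0746 for Sqle and 0.0751 for Nsdhl). Tm7sf2, a sterol reductase, Sc5d, a sterol desaturase, and Dhcr7, the reductase that makes cholesterol from its direct precursor, had log2 fold changes of -0.62, 0.03 and -0.62 (adjusted p = 0.200, 0.879 and 0.115).

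The regulators did not move as one. Insig1, itself a known SREBP target, had 454, 491, 427 and 568 in TSA 24 h cultures and 914, 1251 and 2116 as lowest, median and highest of the controls, with no overlap (log2 -1.37, SE 0.20, adjusted p = 7.94e-05). With array set as a term its log2 change was -1.11. Its relative Insig2 went the other way. Insig2 had 671, 665, 633 and 617 in TSA 24 h cultures and 347, 452 and 548 in the controls, also without overlap (log2 0.52, SE 0.12, adjusted p = 0.00270). Scap, the escort of the SREBPs, had 2916, 2596, 2611 and 2539.8 in TSA 24 h cultures and 1726, 1799.9 and 1950.1 in the controls. It rose 1.46-fold in tight groups (log2 0.55, SE 0.06, adjusted p = 1.35e-05).

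The messages for the SREBPs themselves did not pass the test in their brightest probe sets. Srebf1 had 2409, 948, 1609.8 and 1532 in TSA 24 h cultures and 857, 1337 and 1719 in the controls (log2 0.23, SE 0.21, adjusted p = 0.418). Srebf2 had 541, 411, 405 and 512 in TSA 24 h cultures and 445, 549 and 630.0 in the controls (log2 -0.20, SE 0.13, adjusted p = 0.227). Both genes overlapped between groups. With replicate number as a block Srebf2 passed the test, at log2 -0.32 and adjusted p = 0.0185. It also passed with arrays scaled to equal medians (log2 -0.33, adjusted p = 0.0469) and with its probe sets averaged (log2 -0.35, adjusted p = 0.0125). Of its 2 tested probe sets 1 was called lower.

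**Figure D3:**
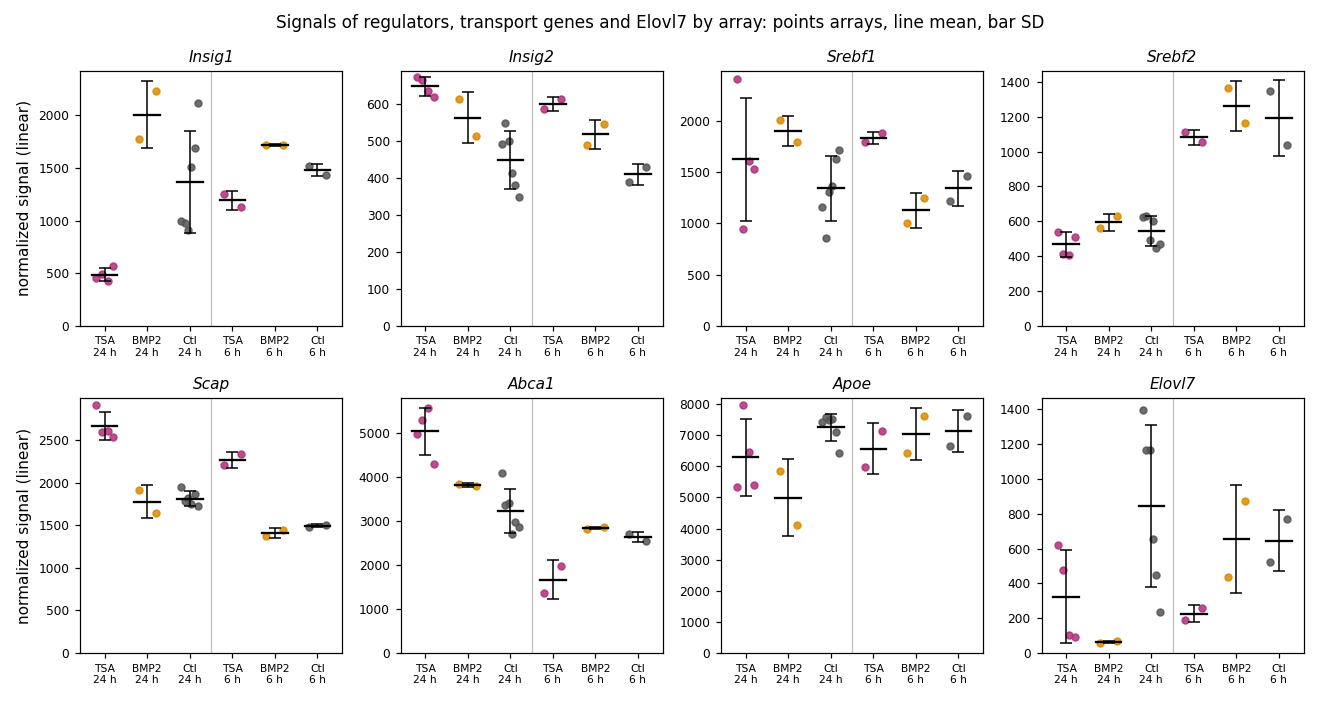
Normalized signal on a linear axis (points, 1 per array, with the mean as a line and the SD as a bar) of the 5 regulators, 2 transport genes and Elovl7 in the 6 groups, Ctl being the control. Insig1 lies below and Insig2, Scap and Abca1 above the 24 h controls in all 4 TSA 24 h arrays, while Srebf1, Srebf2, Apoe and Elovl7 overlap.

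Of the 11 fatty acid genes, 8 fell after 24 h of TSA, 1 rose and 2 did not pass the test. Acly, the citrate lyase that supplies cytosolic acetyl-CoA, had 855, 825, 737 and 874 in TSA 24 h cultures and 1509, 2002 and 2401 as lowest, median and highest of the controls (log2 -1.20, SE 0.11, adjusted p = 1.17e-06). Fasn, the fatty acid synthase, had 1607, 1386, 1410.1 and 1412 in TSA 24 h cultures and 2277, 2542 and 2966 in the controls (log2 -0.81, SE 0.09, adjusted p = 5.79e-06). Both were separated from the controls by a wide gap. Acaca, the acetyl-CoA carboxylase between them, fell by a smaller 0.53 on the log2 scale (adjusted p = 0.0138), with 514 to 651 in TSA 24 h cultures and 664 to 1243 in controls.

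Elongases and desaturases were split. Elovl6, which elongates palmitate, had 389, 466, 241 and 261 in TSA 24 h cultures and 771, 959 and 1206 as lowest, median and highest of the controls (log2 -1.48, SE 0.17, adjusted p = 9.44e-06). Elovl7, an elongase of longer saturated chains, had 622, 478, 103 and 94.4 in TSA 24 h cultures and 238, 909 and 1397 in the controls. Its arrays scattered in both groups and overlapped (log2 -1.46, SE 0.51, adjusted p = 0.0372), and the call was lost without TSA 24 h replicate 3 (adjusted p = 0.131) or replicate 4 (adjusted p = 0.136), and without control replicate 1, 2 or 3 (adjusted p = 0.0685 to 0.0704). The other 5 probe sets of Elovl7, all dimmer, each fell as well, with log2 fold changes of -0.81 to -1.93 and adjusted p of 0.00163 to 0.00400. Elovl1, of the same kind, fell by 0.65 on the log2 scale (adjusted p = 0.0256), a call lost without TSA 24 h replicate 2 (adjusted p = 0.0529) or replicate 3 (adjusted p = 0.0724) or control replicate 3 (adjusted p = 0.0514). Its lowest controls, at 534 and 638, were those of array set B. Fads1 and Fads2, the desaturases of polyunsaturated chains, fell by 0.47 (adjusted p = 0.00766) and 0.82 (adjusted p = 6.42e-05) on the log2 scale. Elovl5, which elongates polyunsaturated chains, rose by 0.36 on the log2 scale (SE 0.10, adjusted p = 0.00770), with 4160.5 to 4959 in TSA 24 h cultures and 2887 to 4209 in controls, but with arrays scaled to equal medians its change was 0.21 (adjusted p = 0.153).

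Neither stearoyl-CoA desaturase passed the test. Scd1 had 2716, 2846, 2888 and 3311 in TSA 24 h cultures and 1610.0, 2429 and 3808 in the controls (log2 0.31, SE 0.19, adjusted p = 0.225). With replicate number as a block its log2 change was 0.36 (adjusted p = 0.0433). The scatter lay in the controls. Scd2, the main form in brain, had 9358, 10618, 9084 and 9044 in TSA 24 h cultures and 9425, 10294 and 11492 in the controls (log2 -0.12, SE 0.05, adjusted p = 0.0927; with the block log2 -0.16, adjusted p = 0.00110). This probe set ranked between 1 and 18 among all probe sets of an array, close to the top of the range of signals (11492 at most). Its dimmer probe sets followed the array sets instead. The middle one had 1613 to 2936 in the 4 arrays of set B and 4238 to 6291 in the 14 of set A, and the dimmest 104 to 242 and 776 to 2928, and with array set as a term neither passed for TSA 24 h (adjusted p = 0.239 and 0.786).

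Among the transport genes, Abca1, which exports cholesterol from cells, had 4994, 5302, 5575 and 4315 in TSA 24 h cultures and 2707, 3177 and 4098 as lowest, median and highest of the controls. Every TSA array lay above every control (log2 0.64, SE 0.12, adjusted p = 5.78e-04). Apoe, the main lipid carrier made by astrocytes, had 5331, 7983, 6445 and 5399.8 in TSA 24 h cultures and 6428, 7449 and 7569 in the controls (log2 -0.22, SE 0.12, adjusted p = 0.148). Replicates 1 and 4 lay below all controls and replicate 2 above all of them, and without replicate 2 the change was -0.34 (adjusted p = 0.0210). Stard4, a cytosolic cholesterol carrier, had a log2 fold change of -0.16 (adjusted p = 0.722).

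Several of these genes had more than 1 probe set above the filter (22 of 36), and no gene had probe sets called in opposite directions in any comparison of a treatment with its control. In 13 of the 22 every such probe set fell after 24 h of TSA. The brightest probe sets of Hmgcs1, Fdft1, Hsd17b7, Elovl1 and Elovl7 are of the kind whose probes may also bind other transcripts.

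At 6 h of TSA 3 of the 36 genes rose and 1 fell, against 14.4% and 11.8% of all genes. In a fit of the 6 h arrays alone 6 rose and 6 fell, against 29% and 23.4% of all genes. In the fit of all arrays their median log2 fold change was -0.06 (all genes 0.02). Scap had 2203 and 2338 in TSA 6 h cultures and 1480.4 and 1508 in 6 h controls, a clear gap (log2 0.59, SE 0.10, adjusted p = 7.67e-04). Insig2 had 585 and 613 in TSA 6 h cultures and 388 and 429 in 6 h controls (log2 0.52, SE 0.18, adjusted p = 0.0488). Elovl5 had 4921 and 5322 in TSA 6 h cultures and 3588 and 3963 in 6 h controls (log2 0.44, SE 0.15, adjusted p = 0.0437). The last pair lay at the threshold, and both calls were lost with deposited or median-scaled signals, where 1 gene rose and 1 fell. Abca1 had 1357 and 1988 in TSA 6 h cultures and 2717 and 2553 in 6 h controls, and so fell at 6 h (log2 -0.67, SE 0.18, adjusted p = 0.0148). Of its 3 tested probe sets only this 1 was called lower, and with them averaged Abca1 did not pass (adjusted p = 0.203). Without either 6 h control or TSA 6 h replicate 1, Scap was the only one of the 4 still called. The study's criteria called 1 gene, lower, against 3.44% of all genes lower and 2.95% higher.

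Several genes with large falls at 24 h did not pass at 6 h. Idi1 had 1361 and 1339 in TSA 6 h cultures and 1809 and 1488 in 6 h controls (log2 -0.28, adjusted p = 0.497). Fdps had 1601 and 1399.8 in TSA 6 h cultures and 1760.0 and 1198 in 6 h controls (log2 0.04, adjusted p = 0.964). Acly had 2553 and 2556 in TSA 6 h cultures and 2521 and 2183 in 6 h controls (log2 0.12, adjusted p = 0.673). Elovl6 was lower already, with 446 and 456 in TSA 6 h cultures and 775 and 755 in 6 h controls, at an adjusted p of 0.0598 (log2 -0.72), and it passed in the fit of the 6 h arrays alone (adjusted p = 0.00108). Elovl7 was also lower, with 191 and 261 in TSA 6 h cultures and 523 and 768 in 6 h controls (log2 -1.38, adjusted p = 0.239, and 0.0193 with the 6 h arrays alone). Of its 6 probe sets 1 was called lower at 6 h (log2 -0.83, adjusted p = 0.0392). Fasn had 2163 and 2039.7 in TSA 6 h cultures and 2829 and 2386 in 6 h controls (log2 -0.30, adjusted p = 0.128, and 0.0374 with the 6 h arrays alone). In that fit Insig1 and Ebp also passed as lower, and Pmvk, Dhcr7 and Srebf1 as higher.

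The change in the TSA effect between the times was tested as an interaction. The effect at 24 h was more negative than at 6 h for 34 of the 36 genes (median difference -0.58, all genes -0.03). It passed the test downward in 7 (6.51% of all genes) and upward in 1 (5.08% of all genes). The 7 were Fdps (log2 difference -1.80, adjusted p = 0.0497), Idi1 (-1.62, adjusted p = 0.00555), Lss (-1.59, adjusted p = 0.0219), Acly (-1.32, adjusted p = 0.00177), Pmvk (-1.31, adjusted p = 0.0302), Cyp51 (-1.27, adjusted p = 0.00818) and Hmgcs1 (-0.74, adjusted p = 0.0125). The 1 upward was Abca1 (1.31, adjusted p = 0.00270), lower than control at 6 h and higher at 24 h. With array set as a term 10 passed downward and 1 upward (8.07% and 6.82% of all genes), Hsd17b7, Insig1 and Elovl1 being added. With the replicate numbers as a block, 15 passed downward and 1 upward (15.1% and 14% of all genes). With only 2 arrays of each 6 h group the count depended on them. It was 5 without control 6 h replicate 1, 3 without replicate 2, and 4 without either TSA 6 h array, and Idi1, Acly and Abca1 passed without any 1 of the 18 arrays.

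**Figure D4:**
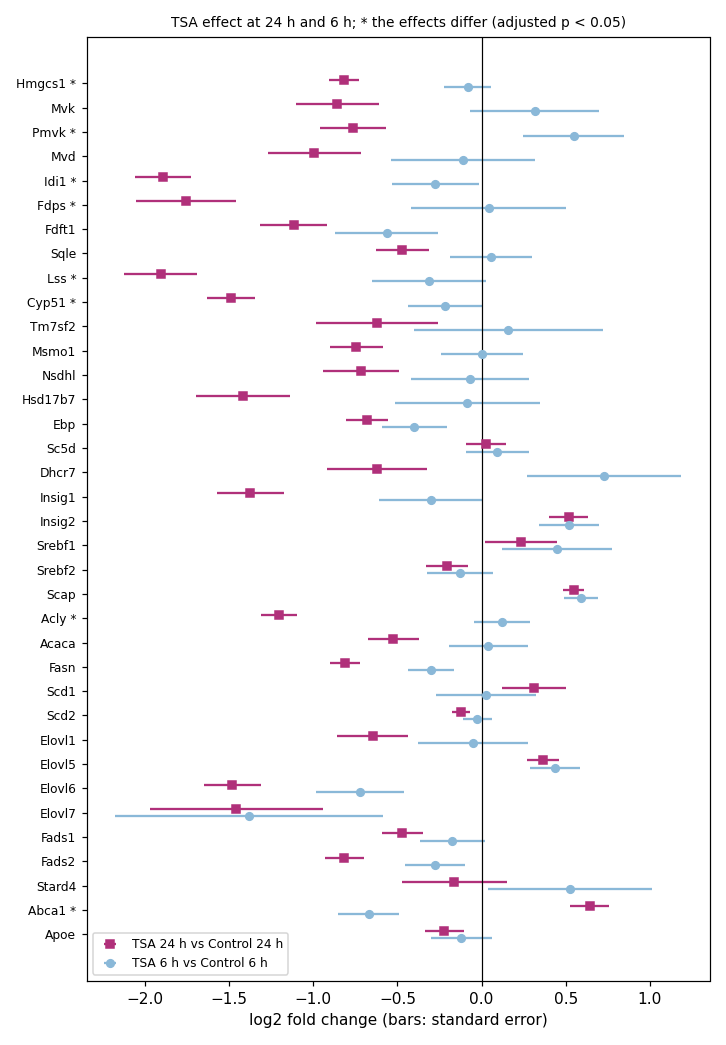
Log2 fold change (horizontal axis, with the standard error as a bar) of each of the 36 genes for TSA 24 h against its controls (squares) and TSA 6 h against its controls (circles), with an asterisk where the interaction passed. Among the circles Elovl7 lies farthest left (-1.38), and Idi1, Fdps, Lss and Cyp51 reach -1.49 to -1.91 at 24 h. Insig2 and Scap lie to the right at both times and Abca1 changes side.

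Few of these genes passed the test with BMP2. At 6 h none of the 36 passed the limma test, none had an unadjusted p below 0.05 and none met the study's criteria. Of all genes 1.15% rose and 0.634% fell by the limma test, and 0.753% and 0.665% by the study's criteria. Log2 fold changes lay between -0.25 for Srebf1 and 0.51 for Elovl1. At 24 h 1 rose and 2 fell, against 9.93% and 7.72% of all genes, and 22 of 36 changes were positive (median 0.20, all genes 0.03). An unadjusted p below 0.05 was found in 11 of the 36, and the study's criteria called 1 higher and 1 lower. For these last counts the shares of all genes are not given here. Pmvk had 607 and 733 in BMP2 24 h cultures, above all controls (211 to 552), and rose (log2 0.96, SE 0.24, adjusted p = 0.0137). Elovl7 had 56.9 and 66.9 in BMP2 24 h cultures and 238, 909 and 1397 as lowest, median and highest of the controls (log2 -3.01, SE 0.65, adjusted p = 0.00455). Apoe had 5857 and 4108 in BMP2 24 h cultures and 6428, 7449 and 7569 in the controls (log2 -0.56, SE 0.15, adjusted p = 0.0154).

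None of these 3 calls held within the array set of the BMP2 arrays. With array set as a term, Pmvk changed by 0.49 (adjusted p = 0.216), Elovl7 by -1.94 (adjusted p = 0.0842) and Apoe by -0.46 (adjusted p = 0.135). Insig2 (0.58, adjusted p = 0.0129) and Elovl1 (0.84, adjusted p = 0.00604) rose instead (6.16% of all genes rose and 4.95% fell). Insig2 had 611 and 513 in BMP2 24 h cultures and 381 and 347 in controls 5 and 6. The count also moved with single arrays, for which the shares of all genes are not given here. It was 8 without control replicate 6, with Hmgcs1, Tm7sf2, Insig1, Scd1 and Stard4 added as higher, and 1 without BMP2 24 h replicate 1 (Apoe) or without replicate 2 (Elovl7). Of the genes with a large fall after TSA, Idi1 had 1385 and 1927 in BMP2 24 h cultures (log2 0.22, adjusted p = 0.500), Cyp51 had 1550.3 and 2059 (log2 0.27, adjusted p = 0.318) and Insig1 had 1779.9 and 2234 (log2 0.60, adjusted p = 0.110). Acly had 1723 and 1918 (log2 -0.09, not past the test), and Lss had 359 and 495 (log2 -0.45, adjusted p = 0.277). These lay within or near the range of the 24 h controls, which does not show that they stayed the same. No gene differed in its BMP2 effect between 24 h and 6 h by the limma test, where 2 had an unadjusted p below 0.05 and 0.766% of all genes passed.

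The treatments were also set against each other. At 24 h TSA cultures had lower signals than BMP2 cultures in 18 of the 36 genes and higher in 1, against 21.2% and 17.2% of all genes (median -0.88, all genes -0.06). The differences were largest in Fdps (-2.26, adjusted p = 5.40e-04), Idi1 (-2.12, adjusted p = 6.35e-06), Insig1 (-1.98, adjusted p = 5.30e-05), Cyp51 (-1.76, adjusted p = 7.84e-06) and Pmvk (-1.72, adjusted p = 1.54e-04), and Scap was higher (0.58, adjusted p = 1.54e-04). Treatment and array set coincide here and cannot be told apart without the controls. With array set as a term 11 were lower and 1 higher (7% and 7.21% of all genes), with Idi1 at -1.95 (adjusted p = 9.94e-04), Cyp51 at -1.67 (adjusted p = 0.00100), Insig1 at -1.18 (adjusted p = 0.00561) and Fdps no longer past the threshold (-1.34, adjusted p = 0.0757). Without BMP2 24 h replicate 2 the count was 12. At 6 h Scap was higher by 0.67 and Abca1 lower by 0.78 on the log2 scale in TSA than in BMP2 cultures, and these were the 2 of the 36 called (28% of all genes). In a fit of the 6 h arrays alone 5 were higher and 8 lower in TSA cultures, against 29.3% and 23% of all genes. The study's criteria called 1, lower (3.61% of all genes lower and 3.45% higher). Replicate 1 of TSA 6 h decided Abca1, since without it only Scap was called.

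The 24 h controls were spread in an uneven way in these genes. Replicate 6 was the highest of the 6 in 19 of the 36 genes (27.5% of all genes) and replicate 3 the lowest in 22 (19% of all genes). Over the 17 mevalonate and sterol genes, the median log2 deviation from the gene's median was 0.58 in replicate 6 and -0.52 in replicate 3. The BMP2 24 h arrays differed likewise, since replicate 2 exceeded replicate 1 in 30 of the 36 genes and in 17 of the 17 mevalonate and sterol genes, against 41.8% of all genes. In cultures left untreated for 24 h rather than 6 h, 1 of the 36 genes fell and none rose (2.53% and 1.82% of all genes). This was Srebf2, with 445, 549 and 630.0 as lowest, median and highest of the 24 h controls and 1349 and 1039.6 in the 6 h controls (log2 -1.09, SE 0.16, adjusted p = 0.00289), a call that was lost without control 6 h replicate 1 (adjusted p = 0.186). Elovl1 was also called with array set as a term, higher at 24 h than at 6 h (log2 0.99, adjusted p = 0.00235), and 3.94% of all genes rose and 5.09% fell.

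**Figure D5:**
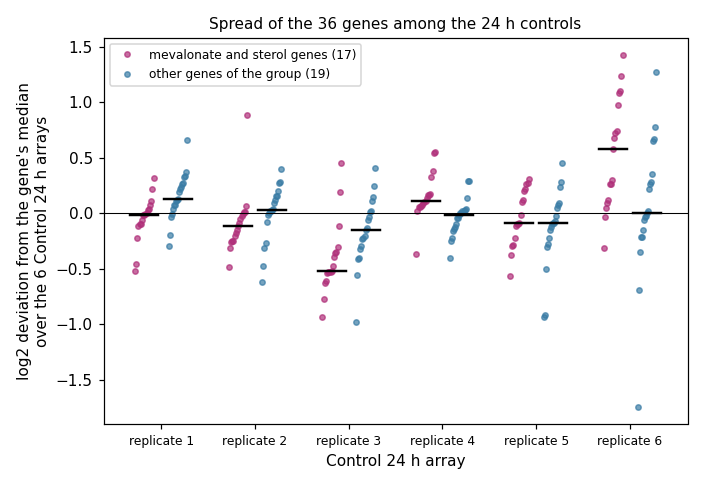
Log2 deviation of each gene from its own median over the 6 Control 24 h arrays (vertical axis), by array, with the 17 mevalonate and sterol genes at left and the other 19 at right of each position and the median of each as a line. The mevalonate and sterol genes lie mostly above 0 in replicate 6 (median 0.58) and below 0 in replicate 3 (median -0.52).

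Further genes of the same pathways were read beside the shares of all genes at 24 h of TSA, 18.6% higher and 20.1% lower. Of 23 further genes of sterol transport, modification and regulation, 14 were tested, and 3 rose, Scarb1, the HDL receptor (log2 1.18, adjusted p = 3.08e-04), Cyp46a1, the neuronal cholesterol hydroxylase (1.10, adjusted p = 0.00358), and Lpcat3, a phospholipid acyltransferase (0.51, adjusted p = 0.0220). Lrp8, an APOE receptor (-0.69, adjusted p = 0.00139), and Lbr, a sterol reductase of the nuclear membrane (-0.33, adjusted p = 0.0221), fell, which is close to those shares, and the list's median was 0.02. Lpcat3 no longer passed with array set as a term (adjusted p = 0.0618). Of 29 further fatty acid genes, 23 were tested, and 6 rose and 2 fell (median 0.13). Among them were Acss2, which makes acetyl-CoA from acetate, at 1068 ± 227 in TSA 24 h cultures (SD, n = 4) and 592 ± 171 in controls (SD, n = 6; log2 0.83, adjusted p = 0.00136), and Cpt1a, which admits fatty acids to mitochondria for oxidation (0.69, adjusted p = 9.49e-04). Elovl2, Fads3, Lpin1 and Me1 also rose, and Aacs (-0.65, adjusted p = 0.00169) and Fabp5 (-0.41, adjusted p = 0.00324) fell.

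At 6 h of TSA the sterol list had 2 rises and 1 fall and the fatty acid list 4 rises and 3 falls (14.4% and 11.8% of all genes). Mylip, the ubiquitin ligase that degrades lipoprotein receptors, rose in each treatment at 6 h, to 209 ± 10.7 in TSA and 476 ± 203 in BMP2 cultures, against 60.9 ± 16.6 in controls (SD, n = 2 each; log2 1.38, adjusted p = 0.00109, and 2.40, adjusted p = 7.14e-05). It was the 1 gene of either list called for BMP2 at 6 h. At 24 h of BMP2 the sterol list had 2 rises (Mylip and Npc1) and 1 fall (Scarb1), and the fatty acid list 2 rises (Elovl2 and Elovl4) and 1 fall (Thrsp), against 9.93% rising and 7.72% falling among all genes. With array set as a term the sterol list had 1 rise (Mylip) and 1 fall (Lrp8) and the fatty acid list 1 rise (Elovl4), against 6.16% and 4.95%.

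Cell type markers moved in the same cultures. The neural progenitor markers Sox2, Vim and Fabp7 had means of 4463 or more in every group. The others of that list were dimmer. Group means were 1488 to 2605 for Hes5, 354 to 1073 for Prom1, 179 to 1094 for Nes, 103 to 650 for Pax6 and 122 to 388 for Mki67. Of 16 tested markers of the oligodendrocyte lineage, 13 fell after 24 h of TSA (median -2.38) and 13 after 24 h of BMP2 (median -2.69), and 13 and 11 with array set as a term. Their summed normalized signal was 18469 to 32312 in TSA 24 h, 16020 to 16319 in BMP2 24 h and 44406 to 63894 in the 24 h controls, of which those of array set B had 44406 to 45702 and those of array set A 55059 to 63894. At 6 h 7 of the 16 fell with TSA, and the sum was 32813 to 36883 in TSA 6 h and 53904 to 59785 in the 6 h controls. Of 10 astrocyte markers 3 fell after 24 h of TSA and 6 after 24 h of BMP2, and 3 in each with array set as a term. Of 11 neuron markers 2 rose and 4 fell after 24 h of TSA, and of 8 progenitor markers 2 rose and 2 fell. All 5 microglial markers were below the filter, with a summed signal of 28.9 to 63.2, and of 5 endothelial and mural markers only Pdgfrb passed it. The part of these cell types in the results was not tested.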

How the data were processed

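The 18 arrays were analysed from the deposited table of linear signal intensity per probe set, which per the labels came from MAS5 (version not given in the sources used here), whereas the study's methods name dChip with rank-based quantile normalization. Medians of the deposited intensity were 35.4 to 41.6 per array. Signals were quantile-normalized, 32 was added and log2 taken. Probe sets whose highest group mean was below 100 were left out. One limma fit (limma 3.58.1, R 4.3.3, mean-variance trend) over the 6 groups gave all comparisons, with Benjamini-Hochberg adjustment over 19498 probe sets. The number of arrays limits the precision. The platform annotation gave 1 symbol to 34958 probe sets, several to 932 and none to 9211, and only the first kind was used. Members and lists were chosen with earlier results of these data known. Values per array are given for members with adjusted p below 0.05 and a log2 change of at least 1 in a comparison with control, and for 12 regulators and central enzymes whatever their change. No 2 arrays of a group shared more than 0.641% of values. Same-numbered TSA and control arrays at 24 h deviated together from their group means (r = 0.318 to 0.584 in 4 pairs), so the numbers were taken to pair them; BMP2 24 h and control arrays did not (r = -0.129 to 0.003). Scripts were tested on simulated data. Alternatives varied scaling, pseudocount, filter, probe sets, trend, arrays, array set and replicate block.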

Additional observations from a re-analysis of the deposited data

Results flagged for a closer look

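Single arrays stood apart from the rest of their group in 5 of the 72 groups of 4 or more arrays that were examined, and chance alone gives about 5% of groups. In TSA 24 h cultures, Pmvk was 247 in replicate 4 and 152 to 167 in the others, Nsdhl was 950.1 in replicate 1 and 504 to 538 in the others, and Fasn was 1607 in replicate 1 and 1386 to 1412 in the others. In the 24 h controls, replicate 6 had 875 for Mvd, with 214 to 373 in the others, and 971 for Stard4, with 179 to 457 in the others.

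The TSA effect differed between 24 h and 6 h in 8 genes by the interaction term of limma. The log2 difference was -0.74 for Hmgcs1, -1.31 for Pmvk, -1.62 for Idi1, -1.80 for Fdps, -1.59 for Lss, -1.27 for Cyp51, -1.32 for Acly and 1.31 for Abca1.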

How the results depend on the processing

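Of the 27 genes called for TSA 24 h, 22 were called in the same direction under every alternative of limma and without any 1 array, with counts of 24 to 28 when single arrays were left out. The study's criteria called 12, all lower. For BMP2 24 h the count of 3 became 5 when probe sets of a gene were averaged and 17 with the replicate block, and 1 to 8 without single arrays. That block joined BMP2 24 h arrays to same-numbered controls with which they did not deviate together (r = -0.129 to 0.003). For TSA 24 h the block also raised the shares of all genes, from 20.1% lower and 18.6% higher to 24.8% in each direction. Its shares for BMP2 24 h are not given here, so the 17 cannot be set against all genes. The same holds for other counts in this paragraph whose shares are not given above. For TSA 6 h the count of 4 became 2 with deposited signals, median scaling or no filter, 1 with the mean of probe sets or the study's criteria, 12 with the arrays of that time alone and 7 with the block, and 1 to 4 without single arrays. For TSA against BMP2 the count of 2 at 6 h became 13 with those arrays alone, 11 with the block and 1 with the study's criteria (1 to 4 without single arrays), and the 19 at 24 h became 12 with array set as a term (12 to 22). The block gave 7 for the BMP2 effect between times (0 without single arrays) and 16 for the TSA effect (8 without it, and 3 to 10 without single arrays). For the 24 h against the 6 h controls, median scaling, the mean of probe sets and array set as a term gave 2 (0 to 2 without single arrays). Same-numbered 6 h arrays also deviated together (r = 0.564 to 0.705), although the labels state no pairs. With 2 arrays in each 6 h group, both pairs of a comparison have the same r. Scd2 reversed between TSA 24 h and BMP2 24 h with the mean of its probe sets (1.40, adjusted p = 0.00754). The causes were not tested, apart from fewer arrays where some were left out. Median scaling moved the median of all genes by TSA 24 h to -0.12, of TSA against BMP2 at 24 h to -0.13, of the TSA effect between times to -0.15 and of the control times to 0.15, and the 36 genes then stood at -0.81, -0.95, -0.75 and 0.06. No paired analysis was possible for the control times, because their arrays share too few numbers. Fits of 1 time alone do not apply to differences between times. Dim genes such as Mvk and Lss lie near the filter in treated cultures, so their folds depend on the 32 added.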

Other observations

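Among untreated cultures at 24 h, the arrays of set B differed from those of set A in 7 of the 36 genes (19.4%, against 17% of all genes). Stard4 (log2 1.12, adjusted p = 0.0238), Mvd (1.03, adjusted p = 0.0148), Mvk (0.81, adjusted p = 0.0436), Insig1 (0.79, adjusted p = 0.00592) and Pmvk (0.70, adjusted p = 0.0193) were higher in set B, and Elovl1 (-0.94, adjusted p = 8.51e-04) and Insig2 (-0.39, adjusted p = 0.0331) were lower.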
